A study of Oncorhynchus mykiss with 23 samples.

Results

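The mitochondrial protein probes described here were the 41 array probes whose name in the study's heat map file held the word mitochondrial or mitochondrion, leaving out names with ribosomal, tRNA, ubiquitin or heat shock and the genes PDK1 and CPT1A. They were 41 of 60195 probes on the array and stood for 26 genes, 7 of which had several probes. The copy of the heat map file read here was cut short at 1252 rows, 1106 of them with a name, and probes beyond these rows are not covered. Of the names, 42 matched, of which the 1 row of PDK1 was left out. That file lists probes which had passed the study's analysis of variance across the same feeding groups, in the order of its clustering, so that the probes differ between groups is partly set by the list, and which profiles appear is partly set by the rows read. Each name is that of the most similar protein of another species, most often human, rat or cow, and the roles given below are known from mammals or yeast. The trout genome keeps many duplicated genes, and the names do not say whether probes of one gene read the same copy.

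Gene expression was measured in fast muscle, the white muscle below the dorsal fin, of individual 1-year-old rainbow trout (Oncorhynchus mykiss) of a spring strain on 1-colour Agilent arrays, with 1 array per fish. F0 were 5 trout deprived of food for 30 days, RF4, RF11 and RF36 were 5, 5 and 4 trout fasted in the same way and then refed for 4, 11 and 36 days at 3 times the normal ration by the labels (the satiation ration in the Methods), and C0 were 4 control trout fed to satiation and killed on day 30. For the refed trout, the labels and the Methods name a fast of 30 days and the Results section another length. The fasted and refed trout shared a tank and the control trout had another, and control trout were on the arrays for day 30 alone, so in each comparison with C0 the feeding cannot be told apart from the tank nor, for refed trout, from the sampling day. The refed trout were also sampled later than F0, and no trout fasted for longer were on the arrays. Against F0 and between refed times, refeeding thus cannot be told apart from the sampling day.

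All levels are log2 signals after the 75th percentile of each array was subtracted, so a difference of 1 is a doubling, and a level compares fish for one probe and not probes with each other. Errors of levels are SDs over the fish of a group. The share of spots well above background lay between 45.2% and 67.2% over the 23 arrays, with medians of 59.6% in F0, 56.6% in RF4, 55.8% in RF11, 49.5% in RF36 and 54.1% in C0, and the arrays held 34200 probes bright enough to be tested. Before scaling, the log2 75th percentile lay at 8.05 to 8.84 in F0, 8.12 to 9.04 in RF4 and 7.73 to 9.08 in RF11. It lay at 7.29 to 8.14 in RF36 and 6.96 to 8.77 in C0. Most RF36 and C0 arrays were thus dimmer than those of F0, and the scaling removes this difference. The control array C0-1 had the highest share of spots above background. Its median correlation with its own group, 0.933, was close to those of C0-3 (0.9374) and C0-2 (0.9435), with C0-4 at 0.9631. C0-1 was also the 1 array that matched none of the columns of the heat map file, where the other 22 arrays each matched a column (r above 0.95 over the rows read, which are not independent). Most probes of fast-fibre proteins were bright, with the probe named for fast myosin between 9.38 and 10.23 in the group means. A dimmer parvalbumin probe lay between -1.09 and 2.09 over all fish. Of 11 probes picked by names of fast-fibre proteins, 2 rose and 9 fell in F0 against C0 (20.3% of all probes called). The 2 that rose were this dimmer parvalbumin probe and a bright creatine kinase probe, CKM. Whether the dimmer probe reads a fast-fibre protein cannot be told from its name. In RF36 against F0, 9 rose and 2 fell (32.7% of all probes called). Several of the 11 were probes of parvalbumin beta, so these are not counts of genes, and their part in the results was not tested. The probe named Slow, read from its name as one for slow fibres, varied widely between fish, with an SD of 0.83 in RF36 and between 2.27 and 4.97 in the other groups, and 1 control trout (C0-3) had its highest level, at 8.97. In whole muscle, fewer cells of a type and less RNA per cell cannot be told apart.

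Mitochondria burn fatty acids and pyruvate through the citric acid cycle and pass the electrons to the respiratory chain, and a muscle deprived of food shifts its fuel from carbohydrate towards fat. Nearly all their proteins are coded in the nucleus, made in the cytosol and brought in through import channels, while a small genome inside the organelle is read and translated by its own machinery. The respiratory chain leaks peroxide, which peroxiredoxins in the mitochondria remove.

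Among the rows read, most of the mitochondrial protein probes were higher in fasted trout than in control-fed trout and lower again after refeeding, and a smaller set, led by the peroxiredoxins, did the opposite. Members lower in RF36 than in F0 lay in rows 123 to 807, and those higher in RF36 in rows 972 to 1245. How members would divide over the full file is not known. The paper reports enrichment of a gene category for the mitochondrion in its cluster of genes that refeeding raised above control-fed levels. That cluster holds mitochondrial ribosomal proteins and tRNA synthetases, whose names the rule here leaves out. How far the rows read cover that cluster was not established, so the members are not a like set to compare with it. Of the 40 probes bright enough to be tested, 26 rose and 11 fell in F0 against C0 (limma, adjusted p under 0.05), where 20.3% of all probes tested were called, 11.4% higher and 8.91% lower. In RF4 against F0, 9 rose and 20 fell (23.3% of all probes called, 13.6% higher and 9.7% lower). In RF11 against F0, 12 rose and 26 fell (27% of all probes called, 15% higher and 12% lower). In RF36 against F0, 12 rose and 28 fell (32.7% of all probes called, 18.2% higher and 14.5% lower). Between the last and the first refed time, RF36 against RF4, 11 rose and 15 fell (17.1% of all probes called, 9.43% higher and 7.68% lower). The 40 of 40 probes that differed across the 5 groups (F test, 45.8% of all probes) are what the list was made from, and 99.9% of the other 1171 heat map rows tested did so too. Those other rows were called at 82.3%, 77.3%, 93.3%, 95.7% and 55.6% in these 5 pairwise comparisons in the same order, so the members' shares of 92.5%, 72.5%, 95%, 100% and 65% stand nearer to those of other rows of the same file than to those of all probes.

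Against control-fed trout the refed groups differed less. In RF4 against C0, 11 of 40 probes were higher and 8 lower (25.4% of all probes called, 15.5% higher and 9.92% lower). In RF11 against C0, 6 were higher and 1 lower (20.7% of all probes called, 14% higher and 6.74% lower). In RF36 against C0, 4 were higher and 4 lower (12.5% of all probes called, 9.27% higher and 3.2% lower). The other heat map rows were called at 58.9% in RF4, 39.3% in RF11 and 22% in RF36 against C0. The median log2 difference of the 40 probes was 1.29 in F0 against C0, -0.55, -1.05 and -1.39 in RF4, RF11 and RF36 against F0, and 0.04, 0.09 and 0.10 in RF4, RF11 and RF36 against C0, beside medians over all probes tested between -0.09 and 0.03 in these comparisons. These medians pool 2 directions. Against C0, the 28 probes lower in RF36 than in F0 had medians of 0.38, 0.05 and -0.17 in RF4, RF11 and RF36. The 12 probes higher in RF36 than in F0 had -0.50, 0.09 and 0.39. The other heat map rows shared the direction against F0. Their medians were 0.77 in F0 against C0 and -0.86, -1.06 and -1.22 in RF4, RF11 and RF36 against F0. Against C0 they were -0.44 in RF4, -0.21 in RF11 and -0.11 in RF36. Without C0-1 the number of probes called was 37 in F0 against C0, 21 in RF4 against C0, 7 in RF11 against C0 and 7 in RF36 against C0. The RF11 count fell to 4 without RF11-5, and the RF36 count to 5 without RF36-1 and to 4 without RF36-2. Called probes kept their direction within each of the 3 slides, except 1 of 26 in RF36 against RF4 on slide 1 and 4 of 19 in RF4 against C0 on slide 2, where each group had 1 or 2 arrays. By group means, 28 of the 41 probes were highest in F0, 11 in RF36, 1 in RF4 (TIMM50) and 1 in RF11 (DUT).

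In the 3 tested genes of fatty acid oxidation the level was higher in fasted trout and lower at each refed time. The genes of this group were ACADM and ACADS, dehydrogenases that take the first oxidation step on medium and short acyl chains, DCI, an isomerase needed for unsaturated chains, and ACOT2, a thioesterase that frees fatty acids from coenzyme A in the matrix and was too dim to be tested. Of the 6 tested probes, 6 rose in F0 against C0 (median log2 difference 1.42, beside 20.3% of all probes called). In each of RF4, RF11 and RF36 against F0, 6 fell (medians -1.29, -1.39 and -2.33, beside 23.3%, 27% and 32.7% of all probes called). Against C0, 0 of 6 were called in RF4 or RF11 (limma, at an unadjusted p under 0.05 0 in RF4 and 1 in RF11), and 3 of 6 were lower in RF36. The shares of all probes called in RF4, RF11 and RF36 against C0 were 25.4%, 20.7% and 12.5%. ACADM had levels of 5.09, 5.65, 5.00, 4.49 and 5.34 in F0, 4.00, 4.45, 4.16, 4.30 and 3.79 in RF4, 3.47, 3.32, 3.98, 3.94 and 3.90 in RF11, 2.74, 2.99, 3.14 and 2.92 in RF36 and 2.87, 3.56, 4.68 and 4.19 in C0. Every fasted fish lay above every refed fish, and 1 control fish (C0-3) reached into the range of F0. ACADM was 2.45-fold higher in F0 than in C0, a log2 difference of 1.29 (standard error 0.28, adjusted p = 0.00204). It was 1.97-fold lower in RF4 than in F0 (adjusted p = 0.00857) and 4.49-fold lower in RF36 than in F0 (adjusted p = 3.98e-06), and RF36 against RF4 was itself past the threshold at -1.19 (adjusted p = 0.00507). Against C0 the RF36 difference was -0.88 (adjusted p = 0.0538) for this probe, while the other 2 ACADM probes were past the threshold at -0.98 (adjusted p = 0.0224) and -1.26 (adjusted p = 0.00266). Without C0-1 the difference of -0.88 became -1.19 (adjusted p = 0.00823), past the threshold. The RF4 call against F0 was lost when arrays were scaled to their median.

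ACADS had the widest range of this group. Its levels were 0.59, 0.48, -0.15, 0.20 and 0.47 in F0, -1.97, -0.41, -1.45, -1.75 and -3.03 in RF4, -3.31, -1.75, -1.97, -2.28 and -2.25 in RF11, -2.0, -4.21, -3.15 and -3.65 in RF36 and -1.81, -1.79, 0.12 and -1.18 in C0. All 5 fasted fish lay above all refed fish, and C0-3 again reached into the F0 range. ACADS was 4.11-fold lower in RF4 than in F0, at -2.04 (standard error 0.45, adjusted p = 0.00152), and the difference was -2.63 (adjusted p = 9.58e-05) in RF11 and -3.57 (adjusted p = 5.58e-06) in RF36. RF36 was also below C0, by 4.24-fold (adjusted p = 0.00875), and below RF4 at -1.53 (adjusted p = 0.0284). Only 1 of 4 RF36 arrays was well above background, so the sizes that rest on RF36 are approximate. The rise in F0 against C0, 1.48 (adjusted p = 0.0291), was lost without any 1 of F0-2, F0-3, F0-7, C0-1, C0-2 or C0-4 (adjusted p between 0.0548 and 0.0969), and the fall in RF36 against RF4 was lost without any 1 of RF4-3, RF4-4, RF36-2, RF36-3 or RF36-4 (adjusted p between 0.0536 and 0.116). The RF36 call against C0 was lost with only those 2 groups in the model. With normexp background correction the difference in RF36 against RF4 shrank to -0.32 (adjusted p = 0.281), so its size depends on the background handling. That call was also lost with quantile normalisation and with only the 2 groups in the model. Without a filter on dim probes, or with the array's 75th percentile as a covariate, it and the F0 call against C0 were both lost.

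The 2 DCI probes moved alike. The one with the higher mean averaged 2.30 ± 0.35 in F0, 0.97 ± 0.23 in RF4, 1.26 ± 0.39 in RF11, 0.57 ± 0.26 in RF36 and 0.93 ± 0.43 in C0. DCI was 2.58-fold higher in F0 than in C0 (adjusted p = 0.000182) and 2.5-fold lower in RF4 than in F0 (adjusted p = 7.71e-05). For ACOT2, 3 of 5 F0 arrays and 0 arrays of any other group were well above background. Its levels were -1.65, -2.03, -3.06, -3.68 and -1.24 in F0, and between -5.43 and -2.89 in the 18 other fish. F0-4 and F0-5 themselves lay below the lowest signal that was well above background on their arrays, -2.06 and -2.55. The F0 mean is thus not fully measured, and no size or bound is given for ACOT2.

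PDK2 acts where pyruvate and the citric acid cycle meet, and DLST within that cycle. PDK2 is a kinase that switches off pyruvate dehydrogenase and so spares carbohydrate, and DLST is a core subunit of the oxoglutarate dehydrogenase complex of the citric acid cycle. Both fell in RF4, RF11 and RF36 against F0. PDK2 had levels of 0.49, -1.03, -0.13, -1.32 and -0.98 in F0, -4.28, -3.95, -4.93, -3.97 and -2.34 in RF4, -4.13, -2.88, -4.83, -5.13 and -4.59 in RF11, -3.45, -4.51, -4.29 and -4.74 in RF36 and -1.89, -1.25, -1.35 and -1.46 in C0. All 14 refed fish lay below all 5 fasted and all 4 control-fed fish, while fasted and control-fed fish overlapped. The probe was well above background on 5 of 5 F0 and 4 of 4 C0 arrays, on 1 of 5 RF4 arrays and on 0 arrays of RF11 or RF36. Bounds were taken with the lowest signal that was well above background as the floor of each dim array. The adjusted p-values beside them are those of the limma fit to the measured values and do not test the bounds. RF11 was below F0 by at least 4.69-fold (adjusted p = 1.14e-06) and RF36 by at least 3.15-fold (adjusted p = 3.52e-06). RF11 was below C0 by at least 2.52-fold (adjusted p = 0.000139) and RF36 by at least 1.70-fold (adjusted p = 0.00103). In RF4 against F0 the measured log2 difference was -3.30 (standard error 0.44, adjusted p = 6.31e-06), and in RF4 against C0 it was -2.41 (adjusted p = 0.000593). With 1 of 5 RF4 arrays well above background, these RF4 sizes are approximate. Fasted trout did not differ from control-fed trout past the threshold in this gene, at 0.89 (adjusted p = 0.198).

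DLST averaged 2.47 ± 0.15 in F0, 1.93 ± 0.34 in RF4, 1.79 ± 0.15 in RF11, 1.36 ± 0.22 in RF36 and 1.25 ± 0.36 in C0. It was 2.33-fold higher in F0 than in C0, at 1.22 (standard error 0.18, adjusted p = 5.75e-05), and it stayed higher than C0 in RF4 at 0.68 (adjusted p = 0.00927) and in RF11 at 0.54 (adjusted p = 0.0402). In RF36 the difference from C0 was 0.11 (adjusted p = 0.759). Its fall in RF4 against F0, -0.54 (adjusted p = 0.0274), was lost without any 1 of F0-3, F0-4, RF4-2 or RF4-4 (adjusted p between 0.0525 and 0.0946), its fall in RF36 against RF4, -0.57 (adjusted p = 0.0356), was lost without any 1 of RF4-3, RF4-5, RF4-7, RF36-1, RF36-3 or RF36-4 (adjusted p between 0.0583 and 0.108), and its RF11 call against C0 without any 1 of RF11-2, RF11-5, RF11-6, C0-1, C0-2 or C0-4 (adjusted p between 0.0537 and 0.145). The falls in RF4 and RF11 against F0 and in RF36 against RF4 were also lost when arrays were scaled to their median, and the RF4 and RF11 calls against C0 with the sample number as a block or with only the 2 groups in the model.

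The housekeeping 5-aminolevulinate synthase, ALAS1, makes the first precursor of haem, the iron group of cytochromes and myoglobin. Its 5 probes all rose in F0 against C0 (20.3% of all probes called). All 5 fell in RF4, RF11 and RF36 against F0 (23.3%, 27% and 32.7% of all probes called). None of the 5 was called in any refed group against C0 or in RF36 against RF4 (limma, 0 of 5 in each of these 4 comparisons; at an unadjusted p under 0.05, 0 in RF4 and RF11 against C0, and 1 in RF36 against each of C0 and RF4). The probe with the highest mean had levels of 6.64, 6.60, 6.56, 6.17 and 6.40 in F0, 5.28, 5.00, 5.09, 5.15 and 5.08 in RF4, 4.26, 4.46, 5.08, 5.22 and 5.00 in RF11, 5.62, 5.25, 5.44 and 5.43 in RF36 and 4.20, 4.96, 5.31 and 5.44 in C0. The lowest fasted fish, at 6.17, lay above the highest of all 18 other fish, at 5.62, while the refed and control-fed groups overlapped. ALAS1 was 2.82-fold higher in F0 than in C0, at 1.49 (standard error 0.22, adjusted p = 4.78e-05), and lower than in F0 by 2.56-fold in RF4 (adjusted p = 3.95e-05), 3.18-fold in RF11 (adjusted p = 2.39e-06) and 2.05-fold in RF36 (adjusted p = 0.00109). These 4 calls held under every alternative run. The 5 probes ranged over log2 differences of 1.35 to 1.61 for F0 against C0, and of -1.99 to -1.35 for RF4 against F0.

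The respiratory chain and its assembly factors did not move as one group. Of its 5 genes, 3 rose and 1 fell in F0 against C0 (20.3% of all probes called). In both RF11 and RF36 against F0, 4 fell and 1 rose (27% and 32.7% of all probes called). CABC1, a kinase-like protein needed to make the electron carrier ubiquinone, had the widest range. Its levels were -0.46, 0.10, 1.21, 0.04 and 1.51 in F0, -1.80, -2.39, -1.60, -1.72 and -1.74 in RF4, -1.48, -0.44, -1.42, -1.42 and -0.70 in RF11, -1.86, -0.98, -0.84 and -1.19 in RF36 and -1.16, -0.26, 0.90 and 0.32 in C0. All RF4 fish lay below all fasted and all control-fed fish, and fasted and control-fed fish overlapped. CABC1 was 5.01-fold lower in RF4 than in F0, at -2.33 (standard error 0.37, adjusted p = 5.57e-05), and 3.47-fold lower in RF4 than in C0 (adjusted p = 0.00181). The differences from C0 were 0.53 (adjusted p = 0.392) in F0, -1.04 (adjusted p = 0.0623) in RF11 and -1.17 (adjusted p = 0.0663) in RF36, none past the threshold.

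NDUFS1, a core subunit of complex I, averaged -0.18 ± 0.23 in F0, -0.64 ± 0.41 in RF4, -2.12 ± 0.45 in RF11, -2.08 ± 0.67 in RF36 and -1.40 ± 0.65 in C0. It was 2.32-fold higher in F0 than in C0 (adjusted p = 0.00779), was not past the threshold in RF4 against F0, -0.46 (adjusted p = 0.286), and was 3.84-fold lower in RF11 than in F0, at -1.94 (standard error 0.30, adjusted p = 2.71e-05). SCO2, which carries copper to cytochrome c oxidase, averaged -0.60 ± 0.29 in F0, -0.87 ± 0.35 in RF4, -1.70 ± 0.17 in RF11, -2.10 ± 0.07 in RF36 and -2.32 ± 0.68 in C0. It was 3.29-fold higher in F0 than in C0 (adjusted p = 2.5e-05) and still 2.73-fold higher in RF4 than in C0, at 1.45 (standard error 0.24, adjusted p = 0.000125). 3 of 4 RF36 and 2 of 4 C0 arrays were well above background for SCO2, and 2 of 4 RF36 and 3 of 4 C0 arrays for NDUFS1. BCS1L, an assembly factor of complex III, averaged -0.16 ± 0.22 in F0, -0.37 ± 0.24 in RF4, -0.73 ± 0.24 in RF11, -0.84 ± 0.22 in RF36 and -1.31 ± 0.47 in C0. It was 2.22-fold higher in F0 than in C0 (adjusted p = 0.000257) and 1.91-fold higher in RF4 than in C0 (adjusted p = 0.00150). Its fall in RF11 against F0, -0.57 (adjusted p = 0.0285), was lost without any 1 of F0-3, F0-5, RF11-4 or RF11-6 (adjusted p between 0.0540 and 0.0856), and its RF11 call against C0, 0.59 (adjusted p = 0.0415), without any 1 of RF11-1, RF11-2, RF11-5, RF11-6, C0-2 or C0-4 (adjusted p between 0.0556 and 0.190). The fall in RF11 against F0 was also lost when arrays were scaled to their median.

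COX5B, a subunit of cytochrome c oxidase, was the exception in this group. It averaged -1.40 ± 0.06 in F0, -1.0 ± 0.17 in RF4, -0.87 ± 0.10 in RF11, -0.34 ± 0.34 in RF36 and -0.64 ± 0.27 in C0. COX5B was 1.69-fold lower in F0 than in C0, at -0.76 (standard error 0.16, adjusted p = 0.00178), and higher than in F0 in RF11, at 0.53 (adjusted p = 0.0112), and in RF36, at 1.05 (adjusted p = 3.28e-05). The 5 fasted fish lay between -1.45 and -1.30, below all 18 other fish. The calls in F0 against C0 and in RF36 against RF4 were lost when arrays were scaled to their median.

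The 3 genes of protein import split between 2 that were high in fasted trout and 1 that was low. TIMM22 is the channel of the translocase that inserts carrier proteins into the inner membrane, TIMM50 the receptor of the main inner translocase, and TOMM5 a small subunit of the outer membrane pore. TIMM22 had levels of 3.25, 4.35, 3.57, 3.39 and 3.79 in F0, 2.29, 2.24, 2.30, 2.07 and 1.66 in RF4, 1.29, 1.18, 1.80, 1.70 and 1.36 in RF11, 1.31, 2.05, 1.71 and 1.82 in RF36 and 0.52, 1.36, 1.64 and 1.48 in C0. The lowest fasted fish, at 3.25, lay above all other fish, and all RF4 fish lay above all control-fed fish by a small margin. TIMM22 was 5.36-fold higher in F0 than in C0, at 2.42 (standard error 0.24, adjusted p = 4.37e-07), and 2.94-fold lower in RF4 than in F0 (adjusted p = 2.16e-05). In RF4 it was 1.82-fold higher than in C0 (adjusted p = 0.0121), a call lost without C0-1 (adjusted p = 0.0634).

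TIMM50 averaged 1.44 ± 0.09 in F0, 1.61 ± 0.24 in RF4, 1.15 ± 0.23 in RF11, 0.77 ± 0.12 in RF36 and -0.16 ± 0.58 in C0. It was above C0 in every other group, by 3.02-fold in F0 (adjusted p = 8.09e-06), 3.40-fold in RF4 (adjusted p = 1.44e-06), 2.48-fold in RF11 (adjusted p = 7.31e-05) and 1.90-fold in RF36 (adjusted p = 0.00731). The 4 control-fed fish lay between -0.67 and 0.56, below all 19 others, of which the lowest was at 0.64. The RF36 call against C0 was lost with only those 2 groups in the model, and the fall in RF36 against F0, -0.67 (adjusted p = 0.0150), when arrays were scaled to their median, with the sample number as a block or with the array's 75th percentile as a covariate. TOMM5 averaged 1.33 ± 0.09 in F0, 2.52 ± 0.18 in RF4, 2.80 ± 0.15 in RF11, 3.08 ± 0.18 in RF36 and 2.68 ± 0.37 in C0. All 5 fasted fish, between 1.24 and 1.43, lay below all other fish. TOMM5 was 2.56-fold lower in F0 than in C0, at -1.36 (standard error 0.16, adjusted p = 3.44e-06), and 2.28-fold higher in RF4 than in F0 (adjusted p = 3.71e-06). Its further rise in RF36 against RF4, 0.57 (adjusted p = 0.0181), was lost without any 1 of RF4-7, RF36-1 or RF36-2 (adjusted p between 0.050 and 0.0701). That rise was also lost when arrays were scaled to their median (adjusted p = 0.205).

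Of the 3 genes that serve expression of the mitochondrial genome, 2 rose in F0 against C0 (20.3% of all probes called). In RF4 against F0, 0 of 3 were called (limma, 1 at an unadjusted p under 0.05, MRRF at 0.0339), beside 23.3% of all probes. MRRF frees mitochondrial ribosomes after translation ends. It had levels of 2.29, 2.82, 2.36, 2.56 and 2.19 in F0, 2.00, 2.14, 1.85, 2.20 and 1.63 in RF4, 1.41, 1.84, 2.16, 1.76 and 1.92 in RF11, 0.81, 1.07, 1.41 and 1.23 in RF36 and 0.25, 0.80, 1.68 and 0.96 in C0. Fasted fish overlapped with RF4 fish and lay above all RF11, RF36 and control-fed fish. MRRF was 2.87-fold higher in F0 than in C0, at 1.52 (standard error 0.23, adjusted p = 4.95e-05), and above C0 also in RF4, at 1.04 (adjusted p = 0.00180), and in RF11, at 0.89 (adjusted p = 0.00697). In RF36 the difference from C0 was 0.21 (adjusted p = 0.623), and RF36 was 2.49-fold below F0 (adjusted p = 0.000125). The fall in RF11 against F0, -0.63 (adjusted p = 0.0326), was lost without any 1 of F0-3, F0-5, RF11-1 or RF11-5 (adjusted p between 0.0625 and 0.0924), and that in RF36 against RF4, -0.83 (adjusted p = 0.0138), without RF36-1 (adjusted p = 0.0584). Both falls were also lost when arrays were scaled to their median.

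TFB1M, a methyltransferase of the small mitochondrial ribosomal RNA, averaged 0.20 ± 0.31 in F0, 0.07 ± 0.12 in RF4, -0.12 ± 0.15 in RF11, -0.95 ± 0.26 in RF36 and -0.84 ± 0.23 in C0. All fasted, RF4 and RF11 fish lay above all RF36 and control-fed fish. TFB1M was 2.06-fold higher in F0 (adjusted p = 0.000130), 1.88-fold higher in RF4 (adjusted p = 0.000417) and 1.65-fold higher in RF11 (adjusted p = 0.00430), each against C0, and RF36 differed from C0 by -0.11 (adjusted p = 0.743). MTIF3, an initiation factor of mitochondrial translation, ran the other way and averaged -0.11 ± 0.34 in F0, -0.19 ± 0.22 in RF4, 0.43 ± 0.21 in RF11, 1.02 ± 0.17 in RF36 and 0.36 ± 0.28 in C0. It was 2.19-fold higher in RF36 than in F0, at 1.13 (standard error 0.19, adjusted p = 7.44e-05), and 2.31-fold higher than in RF4 (adjusted p = 0.000135). In F0 against C0 MTIF3 was not past the threshold, at -0.47 (adjusted p = 0.0798). Its rise in RF11 against F0, 0.54 (adjusted p = 0.0239), was lost without any 1 of F0-3, F0-4, RF11-2, RF11-5 or RF11-6 (adjusted p between 0.0520 and 0.0771), its lower level in RF4 than in C0, -0.54 (adjusted p = 0.0348), without any 1 of RF4-5, RF4-7, C0-2 or C0-4 (adjusted p between 0.0619 and 0.10) and its higher level in RF36 than in C0, 0.66 (adjusted p = 0.0295), without any 1 of RF36-1, RF36-2, RF36-3 or C0-1 (adjusted p between 0.0644 and 0.104). When arrays were scaled to their median, the MTIF3 difference in RF4 against C0 was -0.26 (adjusted p = 0.530).

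The peroxiredoxins PRDX5 and PRDX3, which remove hydrogen peroxide in mitochondria, were low in fasted trout and rose with refeeding. All 7 of their probes, 5 of PRDX5 and 2 of PRDX3, fell in F0 against C0 (median -1.41). All 7 rose in RF4, RF11 and RF36 against F0 (medians 0.89, 1.54 and 1.94) and in RF36 against RF4 (median 1.09). Shares of all probes called in these comparisons were 20.3%, 23.3%, 27%, 32.7% and 17.1%. Of the other heat map rows, 82.3%, 77.3%, 93.3%, 95.7% and 55.6% were called. Against C0, 4 of the 7 probes were lower in RF4, 0 of 7 were called in RF11 and 2 of 7 were higher in RF36 (25.4%, 20.7% and 12.5% of all probes called). PRDX5 had levels of 4.43, 3.98, 4.03, 3.57 and 3.90 in F0, 4.92, 5.25, 4.86, 4.92 and 4.79 in RF4, 5.61, 5.67, 5.90, 5.63 and 5.67 in RF11, 6.29, 6.28, 6.29 and 5.78 in RF36 and 5.09, 5.71, 6.03 and 6.48 in C0. Fasted fish lay below all others, RF4 fish lay below all RF11 and RF36 fish, and the 4 control-fed fish spread over the range of all 3 refed groups. PRDX5 was 3.58-fold lower in F0 than in C0, at -1.84 (standard error 0.22, adjusted p = 3.08e-06), and higher than in F0 by 1.95-fold in RF4 (adjusted p = 0.00117), 3.28-fold in RF11 (adjusted p = 1.29e-06) and 4.52-fold in RF36 (adjusted p = 1.53e-07). In RF4 it was below C0 at -0.88 (adjusted p = 0.00485), a call lost when arrays were scaled to their median.

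PRDX3 averaged 3.95 ± 0.13 in F0, 4.69 ± 0.20 in RF4, 4.98 ± 0.15 in RF11, 5.77 ± 0.18 in RF36 and 5.17 ± 0.38 in C0. It was 2.33-fold lower in F0 than in C0, at -1.22 (standard error 0.17, adjusted p = 1.83e-05), and 3.54-fold higher in RF36 than in F0 (adjusted p = 6.03e-08). All 4 RF36 fish, between 5.60 and 6.02, lay above all 4 control-fed fish, between 4.69 and 5.52, at 0.60 (adjusted p = 0.0287). That call was lost without any 1 of RF36-1, RF36-2, RF36-3, C0-1 or C0-2 (adjusted p between 0.0531 and 0.107), and its lower level in RF4 than in C0, -0.48 (adjusted p = 0.0377), was lost without any 1 of RF4-5, RF4-7, C0-3 or C0-4 (adjusted p between 0.0800 and 0.131). Both were also lost when arrays were scaled to their median or with only the 2 groups in the model.

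Over the genes with 3 or more probes the probes went the same way. The 3 ACADM, 5 ALAS1 and 3 ES1 probes were all called higher in F0 than in C0 and the 5 PRDX5 probes all lower, and all 16 were called with the opposite sign in RF4, RF11 and RF36 against F0. For PRDX5 the log2 difference in RF36 against F0 lay between 1.65 and 2.52 over its probes, for ACADM between -2.55 and -2.17, for ES1 between -2.39 and -1.33 and for ALAS1 between -1.75 and -1.02. Against C0 the probes of a gene were not called alike: in RF36, 2 of 3 ACADM probes were lower and 1 of 5 PRDX5 probes higher, and in RF4, 2 of 3 ES1 probes were higher and 3 of 5 PRDX5 probes lower.

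The other mitochondrial proteins were 6 genes of mixed function. ES1, a protein of the matrix with no firmly known role, had levels of 5.04, 5.40, 5.24, 4.74 and 5.05 in F0, 4.50, 4.77, 4.41, 4.20 and 4.15 in RF4, 3.80, 3.05, 4.10, 3.29 and 3.82 in RF11, 2.18, 2.75, 2.53 and 3.52 in RF36 and 2.86, 3.22, 3.49 and 3.40 in C0. Each RF4 fish lay above each control-fed fish, 1 RF4 fish reached into the F0 range, and RF11 and RF36 overlapped with C0. ES1 was 3.61-fold higher in F0 than in C0, at 1.85 (standard error 0.25, adjusted p = 1.21e-05), 2.24-fold higher in RF4 than in C0 (adjusted p = 0.00135) and 5.09-fold lower in RF36 than in F0 (adjusted p = 2.81e-07). Its fall in RF4 against F0, -0.69 (adjusted p = 0.0336), was lost without any 1 of F0-3, F0-4, RF4-4, RF4-5 or RF4-7 (adjusted p between 0.0573 and 0.0881). That fall was also lost when arrays were scaled to their median (adjusted p = 0.185).

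MMADHC, which directs vitamin B12 towards its mitochondrial and cytosolic enzymes, was high in fasted trout alone. Its levels were 1.29, 2.83, 2.35, 1.39 and 3.12 in F0, and between -0.26 and 0.39 in the 18 other fish. MMADHC was 4.46-fold higher in F0 than in C0, at 2.16 (standard error 0.29, adjusted p = 1.24e-05), and 4.40-fold lower in RF4 than in F0 (adjusted p = 3.22e-06). In RF4, RF11 and RF36 its differences from C0 were 0.02 (adjusted p = 0.972), -0.02 (adjusted p = 0.961) and 0.07 (adjusted p = 0.907), with 95% intervals of -0.58 to 0.61, -0.62 to 0.57 and -0.56 to 0.70.

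DUT, the enzyme that clears dUTP and so keeps uracil out of DNA, ran the other way. It averaged -0.19 ± 0.22 in F0, 1.37 ± 0.23 in RF4, 1.98 ± 0.07 in RF11, 1.72 ± 0.18 in RF36 and 1.68 ± 0.46 in C0. DUT was 3.66-fold lower in F0 than in C0, at -1.87 (standard error 0.19, adjusted p = 3.82e-07), and 2.94-fold higher in RF4 (adjusted p = 7.30e-07) and 4.48-fold higher in RF11 than in F0 (adjusted p = 6.55e-09), with every fasted fish below all others. AGXT2, an aminotransferase, averaged -2.26 ± 0.45 in F0, -2.61 ± 0.49 in RF4, -1.33 ± 0.21 in RF11, -0.54 ± 0.39 in RF36 and -1.12 ± 0.43 in C0. It was 2.21-fold lower in F0 (adjusted p = 0.00374) and 2.81-fold lower in RF4 than in C0 (adjusted p = 0.000261), and 4.19-fold higher in RF36 than in RF4, at 2.07 (standard error 0.27, adjusted p = 2.09e-05). For AGXT2, 3 of 5 F0 and 3 of 5 RF4 arrays were well above background, so these sizes are approximate.

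ENOSF1, an enolase-like enzyme, and DIABLO, which is freed into the cytosol to block inhibitors of apoptosis, were high in fasted trout. ENOSF1 averaged 0.93 ± 0.35 in F0, 0.38 ± 0.26 in RF4, -0.70 ± 0.16 in RF11, -0.72 ± 0.33 in RF36 and -0.52 ± 0.51 in C0. It was 2.73-fold higher in F0 (adjusted p = 7.98e-05) and 1.86-fold higher in RF4 than in C0 (adjusted p = 0.00565), and its fall in RF11 against F0 was -1.63 (standard error 0.21, adjusted p = 3.75e-06). DIABLO averaged 0.28 ± 0.26 in F0, -0.65 ± 0.23 in RF4, -0.53 ± 0.26 in RF11, -1.22 ± 0.21 in RF36 and -1.19 ± 0.45 in C0. It was 2.78-fold higher in F0 than in C0, at 1.47 (standard error 0.20, adjusted p = 1.84e-05), and 1.92-fold lower in RF4 than in F0 (adjusted p = 0.000760). Its higher level in RF11 than in C0, 0.66 (adjusted p = 0.0244), was lost without any 1 of RF11-2, RF11-5 or C0-1 (adjusted p between 0.0561 and 0.115).

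Set against control-fed trout, the 25 tested genes followed different courses. In F0, 16 genes were higher and 6 lower than in C0 (20.3% of all probes called). In RF4, 9 were higher and 6 lower (25.4% of all probes called). The 9 genes still above C0 in RF4 were TIMM50, SCO2, ES1, MRRF, BCS1L, TFB1M, ENOSF1, TIMM22 and DLST. The 6 below C0 in RF4 held CABC1, PDK2 and MTIF3, which were not past the threshold in F0 against C0, and AGXT2, PRDX5 and PRDX3. In RF11, 6 genes were higher (TIMM50, MRRF, TFB1M, DIABLO, BCS1L and DLST) and 1 lower (PDK2). These were 28% of the 25 genes, near the 20.7% of all probes called. In RF36, 3 were higher (TIMM50, MTIF3 and PRDX3) and 2 lower (ACADS and PDK2), 20% of the genes beside 12.5% of all probes. A gene not called against C0 is not thereby shown to be at the control level, and the standard errors of these differences lay between 0.16 and 0.50.

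The share of the F0-to-RF36 difference that was present after 4 and 11 days was computed for each fish and gene. It was largest at RF4 for CABC1 (137% ± 18.3, SD over 5 fish), ALAS1 (131% ± 9.99) and MMADHC (103% ± 12.7), leaving out PDK2, whose RF36 level was not measured above background. It was smallest at RF4 for TFB1M (11.6% ± 10.4), SCO2 (17.9% ± 23.3), NDUFS1 (24.0% ± 21.5), MTIF3 (-6.77% ± 19.1), AGXT2 (-20.3% ± 28.6) and TIMM50 (-25.3% ± 36.0), where a negative share means a mean on the far side of F0. At RF11 the share was 102% ± 23.6 for NDUFS1, 99.3% ± 9.56 for ENOSF1 and 73.3% ± 11.5 for SCO2, but 28.4% ± 13.2 for TFB1M. Among the genes that rose, DUT had reached 81.7% ± 12.3 at RF4 and 114% ± 3.77 at RF11, PRDX5 44.2% ± 8.10 and 78.6% ± 5.27, and PRDX3 40.5% ± 11 and 56.4% ± 8.22. The SDs cover the RF4 or RF11 fish and not the error of the F0 and RF36 means, and differences in share between genes were not tested.

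Averaged over the 18 genes lower in RF36 than in F0, after centring each gene on its mean over all fish, the level was 1.10 ± 0.15 in F0, 0.04 ± 0.05 in RF4, -0.34 ± 0.13 in RF11, -0.66 ± 0.07 in RF36 and -0.34 ± 0.37 in C0. Over the 7 genes higher in RF36 it was -0.90 ± 0.09 in F0, -0.27 ± 0.13 in RF4, 0.30 ± 0.07 in RF11, 0.75 ± 0.06 in RF36 and 0.34 ± 0.25 in C0. The genes were split by F0 and RF36 and came from a list that had passed a test across these groups. The direction between F0 and RF36 is thus set, and the size of that gap may be too large. Only the spread within groups and the place of the other groups were not set by the split. Control-fed fish spread most, from -0.80 (C0-1) to 0.09 (C0-3) over the 18 genes. C0-3, with the highest level of the probe named Slow, was also the highest of the 4 control fish for 13 of these 18 genes, ACADM, ACADS, DCI, DLST, CABC1, NDUFS1, BCS1L, TIMM22, TIMM50, MRRF, TFB1M, ES1 and DIABLO. The part of slow fibres in these values was not tested. With the level of that probe as a covariate, chosen after seeing the data, 1 of 128 gene calls was lost (DLST in RF36 against RF4, adjusted p = 0.0599). Without C0-3, 1 call was lost too (PRDX3 in RF4 against C0). A single probe read from its name does not measure fibre content, so these fits cannot decide that part.

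Among probe names in the scanner files outside the rows read, 1 tested probe matched the words used for mitochondrial pathways, and the study's analysis of variance had no part in listing it here. Some of those names are cut short, so other mitochondrial proteins may be among them. The probe was named for an L-3-hydroxyacyl-CoA enzyme of fatty acid oxidation. Its level averaged 6.32 ± 0.26 in F0, 6.16 ± 0.37 in RF4, 6.12 ± 0.22 in RF11, 5.76 ± 0.44 in RF36 and 5.77 ± 0.78 in C0, with overlapping groups. It was called in 0 of the 8 comparisons (limma, 0 at an unadjusted p under 0.05), with a log2 difference of 0.55 (adjusted p = 0.194) in F0 against C0 and -0.56 (adjusted p = 0.140) in RF36 against F0.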

How the data were processed

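Single-channel intensities of 23 arrays, 1 per fish, were deposited by the authors as extracted with Agilent Feature Extraction 10.7.3.1, background-subtracted and unscaled between arrays. The authors also deposited a table of log2 values with equal array medians (each median 6.09), used as an alternative. Processed intensities were scaled to the 75th percentile of each array after control spots were left out, and log2-transformed. A probe entered the fit where 4 or more arrays of some group had it well above background (34200 probes), 1 mean per group was fitted with limma 3.58.1 (lmFit and eBayes, R 4.3.3), and p-values of each comparison were adjusted by Benjamini-Hochberg over all probes tested, with a threshold of 0.05. The script was tested on simulated data. Fish were separate animals; the number of arrays limits the precision. Where a gene had several probes, the one with the highest mean stood for it, and every member gene could be named; levels of every fish are given for the gene with the widest range of group means in each role group and for genes with 3 or more probes. Alternatives were scaling to the array median, quantile normalisation, normexp background correction, the deposited log2 values, other filters on dim probes, blocks for sample number and slide, a model of only 2 groups, and each array left out. The study's own ANOVA took part in listing the probes, and its other columns were not used. The members and lists were chosen with earlier results of these data known. Probe sequences and genome positions were not used here.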

Additional observations from a re-analysis of the deposited data

Results flagged for a closer look

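In 11 of the 130 gene-by-group sets of 4 or 5 fish examined, 1 fish lay far from the others of its group (Dixon's ratio at the 95% level, which chance gives in about 1 of 20 sets). CABC1 was at -2.39 in RF4-3, against -1.80 to -1.60 in the other RF4 fish. DCI was at 1.57 in C0-3, against 0.65 to 0.77 in the other control fish, and TFB1M was at -0.49 in the same fish, against -1.0 to -0.91. TFB1M was at 0.74 in F0-5, against -0.01 to 0.19 in the other fasted fish. In F0-7, TIMM50 was at 1.60, against 1.36 to 1.42, and COX5B at -1.30, against -1.45 to -1.41. PRDX5 was at 5.25 in RF4-3, against 4.79 to 4.92 in the other RF4 fish, at 5.90 in RF11-4, against 5.61 to 5.67 in the other RF11 fish, and at 5.78 in RF36-4, against 6.28 to 6.29 in the other RF36 fish. MTIF3 was at 0.76 in RF36-4, against 1.08 to 1.14. TOMM5 was at 3.06 in RF11-5, against 2.71 to 2.77 in the other RF11 fish. F0-7, RF36-4, C0-3 and RF4-3 each stood apart in 2 genes.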

How the results depend on the processing

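Of 128 calls over the 25 tested genes and 8 comparisons, 96 were lost under none of the 34 alternatives. Of the others, 18 were lost on leaving out 1 array and 14 only in other settings, and no call changed its direction. The alternative with only probes above background on all arrays covered 102 of the 128 calls. Scaling to the array median and the deposited log2 values lost 17 calls each, no filter on dim probes 16, a model of only the 2 groups 14, and the array's 75th percentile as a covariate, chosen after seeing the data, 14. A slide block lost 5, normexp 4 and quantile normalisation 3, and of the 102 calls in probes above background on all arrays 0 were lost. Scaling to the array median moved the median of all probes against C0 to between 0.19 and 0.27. Calls in RF11 against C0 numbered 7, with 4 without the filter and 3 with only the 2 groups, and those in RF36 against C0 numbered 8, with 4 and 1. Leaving out each array in turn gave 36 to 37 calls in F0 against C0, 26 to 31, 35 to 38 and 40 in RF4, RF11 and RF36 against F0, 23 to 27 in RF36 against RF4, and 15 to 21, 4 to 8 and 4 to 9 in RF4, RF11 and RF36 against C0, where the lowest counts came without RF11-5 (4) and without RF36-2 (4) and RF36-1 (5). The L-3-hydroxyacyl-CoA probe was called in F0 against C0 with normexp and in RF36 against F0 with quantile normalisation (1 of 1 probe each). Nothing in the labels says that sample numbers pair the fish, so the fish were taken as unpaired. Same-number pairs did correlate over 0.1 more often (17 of 33, median 0.11) than other pairs (47 of 178, median -0.01), and what they share was not tested. With the number as a replicate block 10 gene calls were lost, and the 8 comparisons, in the order above, had 37, 30, 35, 39, 26, 17, 5 and 10 calls. Some gene comparisons that were not called passed the threshold under some alternatives, among them CABC1 in RF11 and RF36 and ACADM in RF36, each against C0. The causes of these changes were not tested. Dim probes limit the sizes for PDK2, ACADS, AGXT2, SCO2 and NDUFS1.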

Other observations

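Probes of related function that did not carry the word mitochondrial were looked up after names and values had been seen, and are given as values. UQCR10, a subunit of complex III, averaged 6.38 ± 0.65 in F0, 5.00 ± 0.60 in RF4, 3.86 ± 0.30 in RF11, 3.49 ± 0.44 in RF36 and 4.73 ± 0.54 in C0 (log2 level, SD). It was 3.15-fold higher in F0 than in C0 (adjusted p = 0.00108), and in RF36 it was 7.41-fold lower than in F0 (adjusted p = 9.97e-07) and 2.35-fold lower than in C0 (adjusted p = 0.0244). PHB, a scaffold protein of the inner membrane, was 1.84-fold higher in F0 than in C0 (adjusted p = 0.000310) and 2.16-fold lower in RF36 than in F0 (adjusted p = 1.06e-05). Both probes of NDUFA3, a subunit of complex I, ran the other way, with RF36 2.5-fold and 2.58-fold above F0 (adjusted p = 9.25e-05 and 0.000139). The peroxiredoxins of the cytosol, PRDX1 and PRDX2, were 2.02-fold and 1.92-fold lower in F0 than in C0 (adjusted p = 0.000681 and 0.000440) and 2.87-fold and 2.60-fold higher in RF36 than in F0 (adjusted p = 3.52e-06 and 2.80e-06). HACL1, a lyase of peroxisomal fatty acid oxidation, averaged 2.25 ± 0.60 in F0, 0.59 ± 0.37 in RF4, 0.11 ± 0.09 in RF11, 1.48 ± 0.23 in RF36 and 1.46 ± 0.30 in C0, and RF36 was 1.84-fold above RF4 (adjusted p = 0.0157) and differed from C0 by 0.02 on the log2 scale (adjusted p = 0.973). All these 7 probes came from the same heat map file, so the study's test took part in their listing.

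Of 7 tested probes looked up by name in the scanner files in the same way, 0 were called in F0 against C0 (limma, 0 at an unadjusted p under 0.05), where 20.3% of all probes were called. Against F0, 2 were called in RF4, 2 in RF11 and 3 in RF36, near the shares of all probes called (23.3%, 27% and 32.7%). Catalase, Nrf2, PPARb and SOD2 were called in 0 of the 8 comparisons. The 1 probe whose name stops at "carnitine" averaged 2.44 ± 0.84 in F0, -0.86 ± 0.36 in RF4, -1.26 ± 0.45 in RF11, 0.20 ± 0.60 in RF36 and 2.14 ± 0.62 in C0. It was 9.90-fold lower in RF4 than in F0 (adjusted p = 3.60e-07) and 3.85-fold lower in RF36 than in C0 (adjusted p = 0.00282), while F0 and C0 differed by 0.30 on the log2 scale (adjusted p = 0.647). PPARa, a nuclear receptor that controls genes of fatty acid oxidation, was lower than in F0 in RF4 at -0.48 (adjusted p = 0.0367) and in RF36 at -0.55 (adjusted p = 0.0181). SOD1, the superoxide dismutase of the cytosol, was 1.98-fold higher in RF36 than in F0 (adjusted p = 0.00279), and SOD2, that of the mitochondria, differed by 0.38 (adjusted p = 0.255).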
